A study of Mus musculus with 24 samples.

Results

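The nuclear-encoded subunits of the respiratory chain and of ATP synthase, with cytochrome c, were followed in brain tissue of mice with a knockout of the pantothenate kinase genes Pank1 and Pank2. Members were taken by symbol: protein-coding genes starting with Nduf (without the Ndufaf assembly factors), Sdha to Sdhd, genes starting with Uqcr, Cox4 to Cox8 or Atp5, and Cycs and Cyc1. The rule found 88 genes in the annotation, of which 87 were among the 50686 genes of the count tables. They comprised 38 genes of complex I, 4 of complex II, 9 of complex III, 1 for cytochrome c, 18 of complex IV and 17 of complex V, the ATP synthase. After the filter on low counts 84 members were tested; Cox8b, Cox8c and Cox7b2, isoforms of complex IV subunits, were not, and their highest count in any library was 10, 2 and 15. The rule used no measured value.

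RNA was measured by stranded mRNA sequencing of C57BL/6 mouse tissue that the labels call back left brain. The knockout animals carried the genotype Pank1-/-Syn-Pank2-/- (dKO) and the controls were wild type (WT). Both sexes were taken at day 10 and at day 20, which gave 8 groups of 3 libraries. The labels name no agent. They do not say what Syn stands for, which cells lost Pank2, or whether each library came from an animal of its own, so that p-values measure the spread between these libraries.

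Electrons from NADH enter the respiratory chain at complex I and those from succinate at complex II; both reduce ubiquinone, from which complex III passes them to cytochrome c and complex IV to oxygen. Complexes I, III and IV pump protons across the inner mitochondrial membrane, and ATP synthase uses their return to make ATP, on which neurons depend heavily. Pank1 and Pank2 encode kinases that open the synthesis of coenzyme A, the carrier of acetyl groups that feed the citric acid cycle and so the chain.

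Of the 24 libraries, 23 held 9191988 to 44738612 gene counts, so that 1 count was 0.0224 to 0.109 CPM (counts scaled to a library total of 1000000, with TMM factors). The remaining library, a dKO male of day 10, had 45964 gene counts and was left out for falling under 1000000. Replicate numbers follow accession order, since the labels give none. Pank1 was at 19.5 to 26.7 CPM in the 12 WT libraries and at 6.71 to 8.87 CPM in the 11 dKO libraries, which did not overlap. Pank2 overlapped, with 46.3 to 61.3 CPM in WT and 38.5 to 52.1 CPM in dKO. Members together made up 0.639 to 0.890% of gene counts. Marker sums at day 20 in WT were 5993 to 6143 CPM for 13 neuron genes, 15010 to 19500 CPM for 10 oligodendrocyte genes and 1513 to 2154 CPM for 7 cerebellar genes, so markers of the labelled organ were present.

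At day 10, 1 library stood apart in its markers. In dKO male day 10 replicate 2 the 7 cerebellar genes summed to 378 CPM, where the other 10 libraries of day 10 were at 975.7 to 2506 CPM. Its 7 choroid plexus genes summed to 30.9 CPM (270.3 to 633.8 CPM in the others) and its 13 neuron genes to 6189 CPM (4594 to 5114 CPM in the others). WT female day 10 replicate 3 had the highest oligodendrocyte sum of that day, 11860 CPM. Day 10 results of the members are therefore also given without dKO male day 10 replicate 2. That leaves 1 dKO male at that age, whose spread is taken to be like that of the other groups.

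The bases just upstream of 5 members that were lower in dKO at day 20 are printed first: for cytochrome c and complexes I, III, IV and V, the member with the smallest p that had an entry in RefSeq's promoter table (build GRCm38.p6). Each runs 5′ to 3′ on the gene's strand and ends at the base before the more upstream of the RefSeq and GENCODE starts. Cycs is at chr6:50566570-50566819 (minus strand), Ndufb2 at chr6:39592315-39592564 (plus), Uqcr11 at chr10:80406831-80407071 (minus), Cox6b1 at chr7:30626152-30626364 (minus) and Atp5e at chr2:174464106-174464351 (minus). Capitals mark the motifs described after the sequences.
Cycs: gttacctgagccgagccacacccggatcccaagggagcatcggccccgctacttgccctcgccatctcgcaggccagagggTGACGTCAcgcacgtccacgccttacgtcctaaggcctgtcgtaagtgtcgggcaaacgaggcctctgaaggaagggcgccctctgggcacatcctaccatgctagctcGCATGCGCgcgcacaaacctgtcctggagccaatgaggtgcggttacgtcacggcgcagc
Ndufb2: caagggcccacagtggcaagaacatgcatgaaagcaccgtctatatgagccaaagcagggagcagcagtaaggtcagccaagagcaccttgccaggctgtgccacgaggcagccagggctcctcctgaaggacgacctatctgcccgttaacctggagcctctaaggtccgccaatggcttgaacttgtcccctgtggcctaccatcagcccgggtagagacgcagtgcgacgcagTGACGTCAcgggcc
Uqcr11: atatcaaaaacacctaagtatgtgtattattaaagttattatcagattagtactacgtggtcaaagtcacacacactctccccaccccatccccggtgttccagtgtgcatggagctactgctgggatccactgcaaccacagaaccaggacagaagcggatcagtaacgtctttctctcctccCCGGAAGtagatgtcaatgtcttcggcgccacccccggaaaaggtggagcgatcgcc
Cox6b1: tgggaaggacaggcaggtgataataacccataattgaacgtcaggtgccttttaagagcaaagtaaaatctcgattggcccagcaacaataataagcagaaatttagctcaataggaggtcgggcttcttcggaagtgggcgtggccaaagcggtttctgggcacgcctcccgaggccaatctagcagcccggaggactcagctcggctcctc
Atp5e: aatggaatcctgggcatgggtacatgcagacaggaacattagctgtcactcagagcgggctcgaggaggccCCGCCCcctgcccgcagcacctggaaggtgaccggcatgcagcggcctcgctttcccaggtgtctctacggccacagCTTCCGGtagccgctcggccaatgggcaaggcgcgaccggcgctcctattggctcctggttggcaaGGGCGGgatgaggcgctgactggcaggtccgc

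6 motifs of factors known for respiratory genes or housekeeping promoters were searched on both strands in the 250 bases before the start, in 68 members with an entry and in 32536 distinct promoters of all genes. The letters GCGCANGC of NRF1 were in 26.5% of the members' promoters and in 8.35% of all promoters; among members they were in 25% of the 40 called lower at day 20 and in 28% of the 25 not called. In the Cycs stretch they ended 52 bases before its end. CCGGAAG, bound by the ETS factor GABP, was in 16.2% of members (20% of those called lower, 8% of those not called) and 6.95% of all promoters; Uqcr11 and Atp5e each hold 1 in the printed stretch. TGACGTCA of CREB was in 7.35% of members and 1.56% of all promoters, and Cycs and Ndufb2 hold it. GGGCGG of SP1 was in 33.8% and 33%, TCAAGGTCA of the ERR receptors in 1.47% and 0.375%, and AAGATGGC of YY1 in 0 members' windows and 1.57% of all. No motif contains another on either strand, and a match describes the letters only. The printed Cox6b1 stretch holds none of the 6. Its searched window of 250 bases runs beyond that stretch and holds 1 CCGGAAG, which is counted above.

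At day 20 the members were mostly lower in dKO. Over both sexes 47 of 84 were called lower and 2 higher, where 19.2% of the 21657 genes tested were called lower and 18.8% higher (edgeR's quasi-likelihood test, Benjamini-Hochberg adjusted p under 0.05). Members are abundant genes, and 24.8% of the 10814 genes that averaged 10 CPM or more were called lower. The changes were small: the 47 members fell by 10.6 to 37.5%, with a median log2 change of -0.25. Over all 84 members 74 were below 0 and the median was -0.19, against -0.00 for all genes tested. In 23 members each of the 6 dKO libraries was below each of the 6 WT libraries, which was so in 10.3% of all genes, and in 1 member each dKO library was above, as in 9.79% of all genes. By complex, the share called lower was 20 of 38 in complex I, 2 of 4 in complex II, 6 of 9 in complex III, 7 of 15 in complex IV and 11 of 17 in complex V, beside Cycs.

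**Figure D1:**
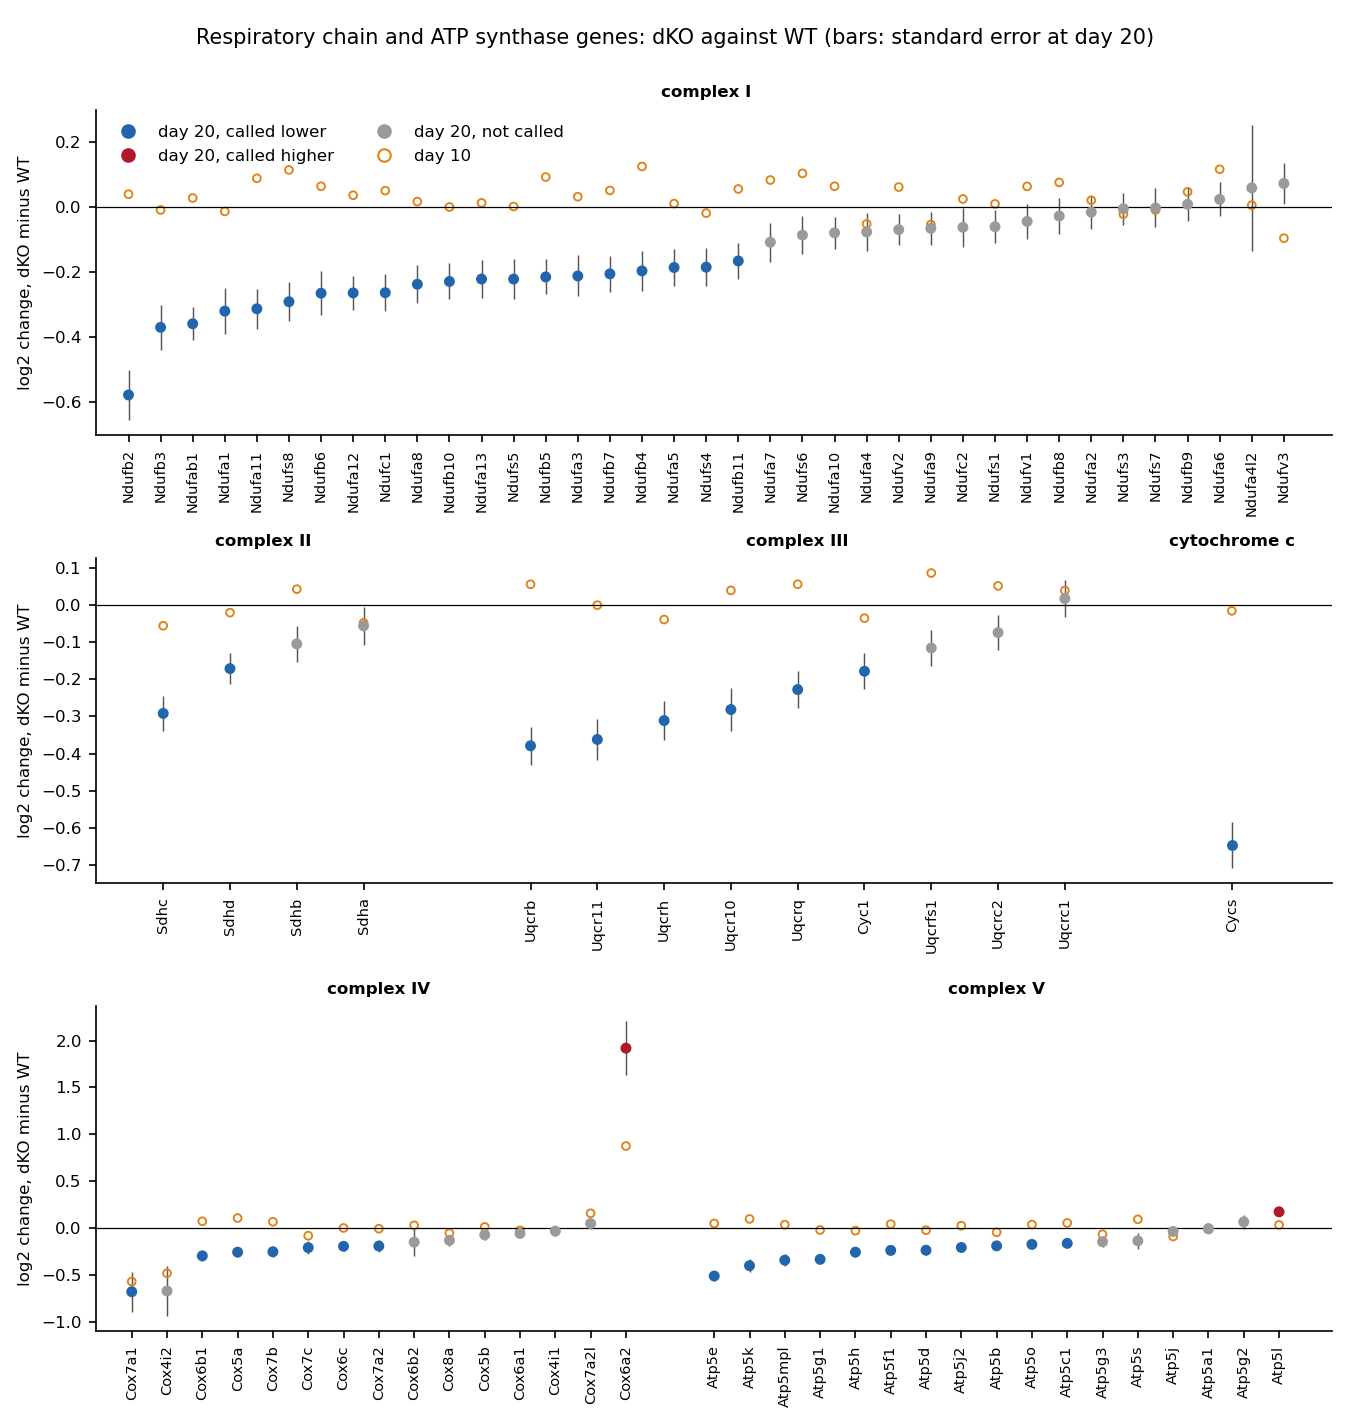
Log2 change of dKO against WT for 83 of the 84 members tested, Cox6a2 among them, sorted within its complex; filled points give day 20 with standard error, coloured by call, and open points day 10. Most filled points lie below 0 while the open points scatter around it, and Cox6a2 stands alone near 1.92.

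Cytochrome c, the soluble carrier between complexes III and IV, had the smallest p of all members. Cycs (GRCm38 chr6:50562563-50566538, minus strand) was at 60.4, 66.1 and 68.5 CPM (lowest, median, highest) in WT day 20 and at 33.4, 41.2 and 50.04 CPM in dKO day 20. All dKO libraries were low, the males lowest, and the groups did not overlap. Its log2 change was -0.65 ± 0.06 (SE; 6 against 6 libraries), a fall of 36.1%, with an adjusted p of 5.36e-08 in edgeR's test. At day 10 the 5 dKO libraries, from 59.0 to 71.0 CPM, overlapped the WT libraries, from 62.6 to 75.7 CPM, and 1 dKO female lay below all of them. An antisense RNA gene starts beside Cycs on the other strand; the strand-specific column was used.

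Complex I oxidises NADH. The 7 nuclear core subunits, which carry the flavin and the iron-sulfur clusters held 1 member called lower, Ndufs8 (-0.29, adjusted p = 5.78e-04 in edgeR's test). Among the 31 other members, which by symbol include Ndufa4 and Ndufa4l2, 19 were called lower, with a median of -0.20 against -0.05 in the core. This grouping was made after the values were seen.

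Ndufb2 (chr6:39592574-39603382, plus strand), an accessory subunit of the membrane arm, had the smallest p in complex I. It was at 25.9, 30.6 and 34.2 CPM in WT day 20 and at 18.4, 20.5 and 22.1 CPM in dKO, a log2 change of -0.58 ± 0.08 (adjusted p = 4.08e-06, edgeR). The groups did not overlap, and the dKO libraries of day 20 lay within or below the 20.9 to 26.5 CPM of WT day 10. Ndufab1, the mitochondrial acyl carrier protein, whose phosphopantetheine arm derives from coenzyme A, went from 57.3, 59.3 and 60.8 CPM in WT to 41.7, 46.6 and 51.3 CPM in dKO (-0.36 ± 0.05, adjusted p = 8.86e-06, edgeR), without overlap. Ndufb3, another membrane arm subunit, went from 26.9, 29.8 and 34.7 CPM to 19.6, 22.7 and 26.5 CPM (-0.37 ± 0.07, adjusted p = 1.78e-04, edgeR), also without overlap. The other accessory members called lower spanned -0.32 (Ndufa1) to -0.17 (Ndufb11). Ndufa7 had -0.11 and Ndufa10 -0.08, and neither was called.

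Ndufa4 was first assigned to complex I and is now known to bind complex IV. It was at 134.9, 143.2 and 153.6 CPM in WT day 20 and at 120.1, 134.1 and 152.7 CPM in dKO, so the groups overlapped and it was not called (-0.08, adjusted p = 0.321, edgeR). Its hypoxia-associated paralogue Ndufa4l2 was at 0.793, 1.29 and 1.36 CPM in WT and 1.01, 1.24 and 1.45 CPM in dKO and was not called (0.06 ± 0.19, adjusted p = 0.847).

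Complex II, succinate dehydrogenase, has 2 catalytic subunits, Sdha with the flavin and Sdhb with the iron-sulfur clusters, and 2 membrane anchors, Sdhc and Sdhd. Both anchors were called lower. Sdhc (chr1:171127165-171150603, minus strand) went from 58.4, 63.1 and 64.8 CPM in WT to 44.4, 51.2 and 55.4 CPM in dKO, without overlap (-0.29 ± 0.05, adjusted p = 4.12e-05, edgeR). Sdhd went from 57.8, 58.9 and 62.6 to 47.7, 52.5 and 59.0 CPM, where the highest dKO library reached into the WT range (-0.17 ± 0.04, adjusted p = 2.53e-03, edgeR). The catalytic subunits were not called. Sdhb was at 71.5, 74.6 and 78.1 CPM in WT and 64.7, 68.5 and 77.4 CPM in dKO (-0.10 ± 0.05, adjusted p = 0.0923). Without dKO female day 20 replicate 1 it was called, at -0.14. Sdha was at 318.0, 331.6 and 358.0 CPM in WT and 304.7, 322.4 and 347.8 CPM in dKO (-0.06 ± 0.05, adjusted p = 0.423), with much overlap.

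In complex III, which hands electrons from ubiquinol to cytochrome c, all 5 small subunits were called lower, from -0.38 to -0.23. Uqcrb (chr13:66900617-66905378, minus strand), which binds near the ubiquinone site, went from 54.0, 59.6 and 62.8 CPM to 39.1, 44.2 and 52.9 CPM (-0.38 ± 0.05, adjusted p = 4.66e-06, edgeR). Its 3 dKO males, at 39.1 to 41.1 CPM, were lower than its 3 dKO females, and no dKO library reached the WT range. Uqcr11 went from 59.3, 64.6 and 67.7 to 39.8, 51.8 and 55.9 CPM (-0.36 ± 0.06, adjusted p = 2.59e-05) without overlap. Uqcrh, the hinge protein that helps dock cytochrome c, went from 111.4, 116.6 and 120.6 to 80.4, 92.8 and 106.5 CPM (-0.31 ± 0.05, adjusted p = 5.92e-05) without overlap.

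Of the complex III subunits that carry redox centres, cytochrome c1 was called lower and the Rieske protein was not. Cyc1 went from 89.8, 90.8 and 97.4 CPM in WT to 73.9, 82.0 and 85.7 CPM in dKO, without overlap (-0.18 ± 0.05, adjusted p = 5.35e-03, edgeR). Uqcrfs1, the Rieske iron-sulfur protein, had -0.12 ± 0.05 (adjusted p = 0.0581). The large core proteins Uqcrc1 and Uqcrc2 had 0.02 and -0.07 and were not called. The split into small and large subunits was made with the values in view.

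Complex IV, cytochrome c oxidase, has its catalytic core encoded in mitochondria, and the members here surround that core. Cox6b1 (chr7:30616861-30626151, minus strand), which faces the docking site of cytochrome c, went from 108.2, 112.7 and 117.5 CPM in WT to 71.8, 91.2 and 108.9 CPM in dKO (-0.29 ± 0.05, adjusted p = 1.28e-04, edgeR). The ranges touched, since 1 dKO female reached 108.9 CPM. Cox5a, a matrix-side subunit, went from 91.0, 96.2 and 97.9 to 70.8, 78.6 and 91.8 CPM (-0.26 ± 0.05, adjusted p = 7.84e-04), with overlap at the top of the dKO range; in counts without strand it was -0.15 and not called (adjusted p = 0.255). Cox7b, Cox6c, Cox7a2 and Cox7c were also called, between -0.25 and -0.19. Cox7c lost the call with the principal transcript length offset (-0.09, adjusted p = 0.271) and without dKO female day 20 replicate 3, dKO male day 20 replicate 1, WT female day 20 replicate 1 or WT male day 20 replicate 3 (adjusted p = 0.0536 to 0.0728).

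Several complex IV subunits come as a general form and a form typical of heart and skeletal muscle, lung or testis. Cox4i1, the general form of the subunit through which ATP and ADP act on the enzyme, was not called: 258.0, 272.5 and 275.0 CPM in WT against 239.2, 261.7 and 304.4 CPM in dKO (-0.03 ± 0.05, adjusted p = 0.681). Its paralogue Cox4i2, known from lung and oxygen sensing cells, was at 0.521, 0.695 and 1.015 CPM in WT and 0.311, 0.442 and 0.698 CPM in dKO, and missed the threshold (-0.67 ± 0.27, adjusted p = 0.0528), with 7 to 22 counts a library at day 20. Without 1 of 6 libraries, in turn, it passed: dKO male day 10 replicates 1 and 2, dKO female day 20 replicate 2, dKO male day 20 replicate 2, WT female day 20 replicate 1 and WT male day 20 replicate 1 (adjusted p = 0.0272 to 0.0469). It also passed with upper-quartile factors (0.0493), all 24 libraries (0.0465) and the exon length offset (0.0447).

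Cox6a2 (chr7:128205435-128206387, minus strand), the form of heart and skeletal muscle, was the member with the greatest rise. It was at 0.0716, 0.196 and 0.273 CPM in WT day 20 and at 0.589, 0.766 and 0.856 CPM in dKO day 20. These are 2 to 11 counts a library in WT and 13 to 22 in dKO, so the level is low, but no dKO library reached down to the WT range. The log2 change was 1.92 ± 0.29 (adjusted p = 1.82e-05, edgeR). The 5 skeletal muscle markers tested had log2 changes from -1.51 to 0.23 with adjusted p from 0.217 to 0.999 (edgeR), and the list of 6 summed to 1.62 to 16.7 CPM in WT and 2.13 to 4.03 CPM in dKO; their part in the Cox6a2 value was not tested. Cox6a1, the general form, was at 114.8, 121.9 and 127.2 CPM in WT and 99.0, 116.8 and 133.3 CPM in dKO (-0.05 ± 0.05, adjusted p = 0.449). Per kb of exon, Cox6a2 made up 0.0606 to 0.245% of both forms in WT and 0.511 to 0.750% in dKO.

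Cox7a1, again a heart and muscle form, was low and fell: 1.15, 1.79 and 2.24 CPM in WT against 0.634, 1.197 and 1.48 CPM in dKO (-0.68 ± 0.21, adjusted p = 0.0142, edgeR), with overlap. Without dKO male day 20 replicate 1 its adjusted p was 0.0503, and without WT female day 20 replicate 1 it was 0.0541. Cox7a2, the general form, was at 83.5, 92.0 and 96.4 CPM in WT and 66.3, 78.2 and 91.8 CPM in dKO (-0.19 ± 0.06, adjusted p = 0.0167). It lost the call without dKO female day 20 replicate 3 (adjusted p = 0.0572) and without dKO male day 20 replicate 1 (0.0631), and with the principal transcript length offset it had -0.09 (0.193). Cox7a2l, a paralogue that joins complexes III and IV in supercomplexes, was at 61.7, 66.0 and 74.1 CPM against 64.6, 69.3 and 76.7 CPM and was not called (0.05 ± 0.05, adjusted p = 0.499).

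Cox8a, the smallest general subunit, was at 147.0, 158.8 and 159.6 CPM in WT and 128.4, 143.5 and 157.2 CPM in dKO and was not called (-0.13 ± 0.06, adjusted p = 0.0772). It was called without WT female day 10 replicate 3 (adjusted p = 0.0482), with the exon length offset (0.0310) and with only the libraries compared (0.0128). Cox6b2, a testis form, was at 1.36, 1.83 and 1.95 CPM in WT and 1.204, 1.51 and 2.02 CPM in dKO (-0.15 ± 0.15, adjusted p = 0.477), with full overlap.

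In ATP synthase the F1 head makes ATP, the c ring turns in the membrane and a stalk holds the head still. Atp5e (chr2:174461072-174464105, minus strand), the epsilon subunit at the foot of the central stalk, had the smallest p of the complex. It went from 41.0, 42.9 and 47.5 CPM in WT to 26.7, 30.4 and 35.1 CPM in dKO, without overlap (-0.51 ± 0.06, a fall of 29.8%, adjusted p = 2.60e-07, edgeR). Of the other F1 subunits, gamma (Atp5c1, -0.16), delta (Atp5d, -0.23) and the catalytic beta (Atp5b, -0.19) were called lower. Atp5b had 921.0 ± 16.5 CPM (SD, n = 6) in WT and 809.1 ± 48.6 CPM in dKO. The alpha subunit Atp5a1 had -0.01 ± 0.04 and was not called (adjusted p = 0.920).

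The c ring protein is made from 3 genes whose mature products are identical. Atp5g1 went from 98.2, 103.2 and 105.7 CPM to 68.2, 81.5 and 91.5 CPM, without overlap (-0.33 ± 0.05, adjusted p = 3.48e-05, edgeR). Atp5g3, the most abundant of them per kb of exon, was at 141.3, 147.6 and 162.3 CPM in WT and 120.8, 135.5 and 151.8 CPM in dKO and just missed the threshold (-0.14 ± 0.06, adjusted p = 0.0564). It passed without any 1 of 6 libraries: dKO male day 10 replicate 1, dKO female day 20 replicate 1, dKO male day 20 replicate 3, WT female day 10 replicates 1 and 3, and WT male day 20 replicate 1 (0.0261 to 0.0450). It also passed with upper-quartile factors (0.0476), no filter (0.0290), unstranded counts (0.0431) and only the libraries compared (0.0164). Atp5g2 was at 18.2, 19.9 and 21.9 CPM against 17.97, 20.3 and 26.3 CPM and was not called (0.07 ± 0.08, adjusted p = 0.522). Per kb of exon, Atp5g1 made up 19.7 to 21.99% of the 3 genes in WT day 20 and 17.0 to 19.2% in dKO day 20.

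The peripheral stalk fell in 3 of 4 members, Atp5f1 (-0.24), Atp5h (-0.26) and Atp5o (-0.17), while Atp5j had -0.03 and was not called. Among the small membrane subunits at the dimer interface, Atp5k (subunit e) went from 49.1, 53.8 and 59.2 CPM to 32.0, 42.3 and 49.7 CPM (-0.40 ± 0.07, adjusted p = 9.39e-05, edgeR), with the ranges just touching. Atp5mpl (-0.34) and Atp5j2 (subunit f, -0.21) were called lower too. Atp5l (subunit g) went the other way: 53.5 ± 1.61 CPM in WT and 60.4 ± 4.37 CPM in dKO (SD, n = 6 each), a log2 change of 0.17 ± 0.05 (adjusted p = 5.86e-03, edgeR). Atp5l has annotated processed pseudogenes, as do Uqcrh, Atp5k, Ndufab1 and Atp5c1. Cox6c2, Ndufa11b, Ndufb4c and Ndufs6b, whose symbols resemble those of Cox6c, Ndufa11, Ndufb4 and Ndufs6, are processed pseudogenes too. Only pseudogenes whose symbols meet the rule were looked up. Reads that map to several places are not in the gene counts (4.77 to 5.94% of reads), so values of members with pseudogenes carry that uncertainty.

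**Figure D2:**
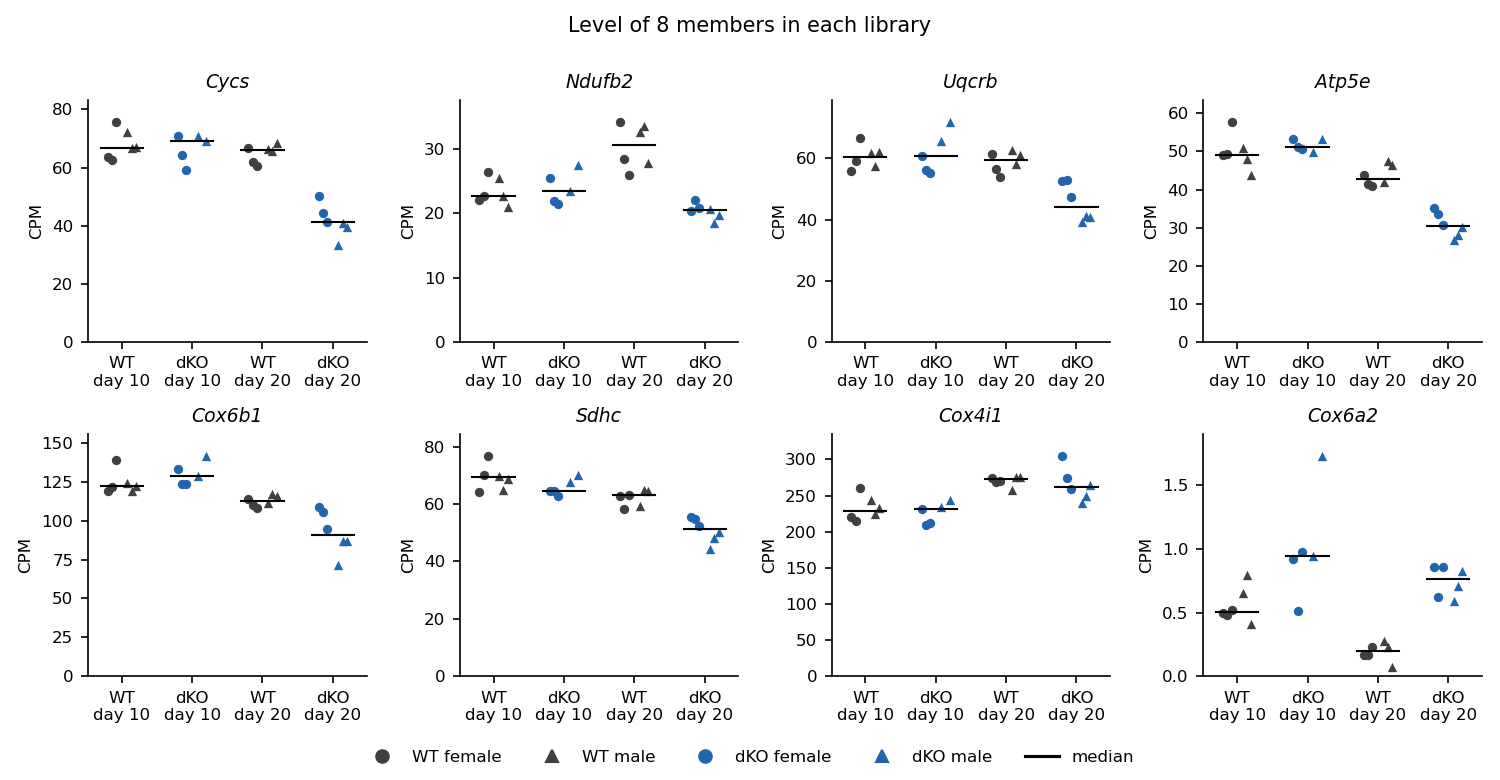
CPM of 8 members in each of the 23 libraries (circles female, triangles male; bars are medians of a genotype and day). Cycs, Ndufb2, Uqcrb, Atp5e and Sdhc are lower in every dKO library of day 20 than in any WT library of that day, Cox6b1 and Cox4i1 overlap, and Cox6a2 is higher.

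Summed over its members per kb of exon, complex III separated the genotypes at day 20, with 556.7 to 592.3 CPM per kb in WT and 435.9 to 541.2 in dKO. Cytochrome c did so too. Complex I was at 1325 to 1427 in WT and 1127 to 1386 in dKO, complex IV at 1172 to 1253 and 955.3 to 1248, complex V at 1063 to 1143 and 891.7 to 1078, and complex II at 176.0 to 191.1 and 160.3 to 183.9, all with overlap. In the sum over all members the 6 WT libraries lay at 4332 to 4618 CPM per kb and the 6 dKO libraries at 3580 to 4453. The lowest was dKO male day 20 replicate 1, and the highest dKO library, a female, fell inside the WT range. In WT day 20 the highest levels per kb of exon among members were those of Cox8a (256.5), Atp5a1 (243.7) and Atp5b (216.2), of which Atp5b was called lower. The 47 members called lower held 53.3% of the members' summed level there. Exon length joins the exons of all transcripts of a gene. It was 4237 bases for Atp5b and 619 for Cox8a, where the principal mRNAs have 1916 and 550. Order, sums and shares per kb, here and above, depend on that choice. In bulk tissue fewer cells of a type and less RNA per cell cannot be told apart.

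**Figure D3:**
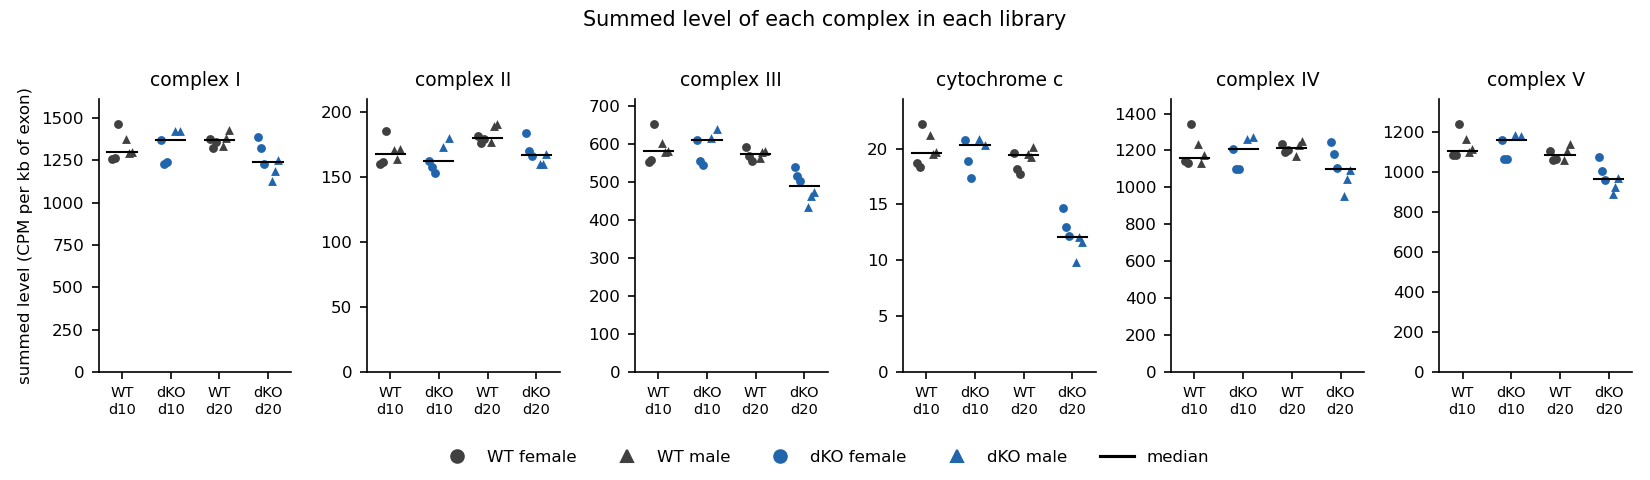
Summed CPM per kb of exon of each complex in each library (circles female, triangles male; bars are medians). The dKO libraries of day 20 sit lowest in complex III and cytochrome c, where they do not meet the WT libraries of that day, and partly overlap in the others.

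Short subunits made up most of the members that fell. Of the 63 members tested with a coding length of at most 600 bases 41 were called lower, and of the 21 longer ones 6 were. Among all protein-coding genes of at least 10 CPM, 32.3% of those with an mRNA of at most 1000 bases and 24.5% of the longer ones were called lower. By mRNA length the members split less: 28 of 49 with at most 1000 bases and 19 of 35 longer ones were called lower. With an offset for the length of the principal transcript, added after the data were seen, 37 of the 47 members kept the call and all 47 stayed below 0, while the median of the 84 members moved from -0.19 to -0.10; the counts were then 14 of 38 in complex I, 2 of 4 in complex II, 6 of 9 in complex III, 4 of 15 in complex IV and 10 of 17 in complex V. The share of all genes called with the principal transcript offset is not given, so these counts have no background beside them. With an offset for the total exon length all 47 members kept the call.

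**Figure D4:**
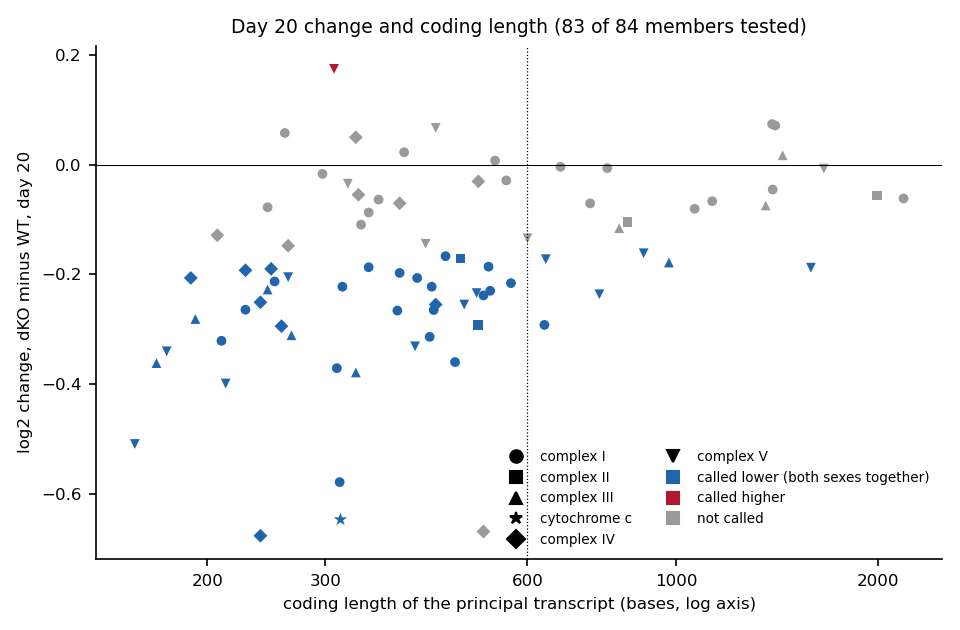
Log2 change at day 20 against coding length of the principal transcript for 83 of the 84 members tested (Cox6a2 is off the scale); marker shape gives the complex and colour the call, and the dotted line is at 600 bases. Members below -0.3 all lie left of the line, and right of it 6 members are called lower.

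At day 10, over both sexes 0 of 84 were called lower and 1 higher, where 1.76% of all genes were called lower and 3.23% higher by edgeR's test. At an unadjusted p under 0.05 there were 3 members (3.57%), 1 of them lower, with each of edgeR, DESeq2 and limma-voom, against 24.4, 23.2 and 25.6% of all genes. DESeq2 called 0 members in either direction, where it called 966 genes lower and 1118 higher, and limma-voom 0 members lower and 1 higher, with 529 and 960 genes. The median log2 change was 0.03 and 30 members were below 0. Without dKO male day 10 replicate 2, edgeR called 0 of 85 members and 15 genes in all, and the median was 0.01. Without dKO female day 10 replicate 1, 1 member was called lower, where 2063 genes were called in either direction. The member called higher was Cox6a2, with 0.413, 0.508 and 0.795 CPM in WT and 0.512, 0.945 and 1.73 CPM in the 5 dKO libraries (0.88, adjusted p = 0.0462), with overlap. No member was called higher in 8 of 12 alternative settings, nor in 17 of 23 fits without 1 library.

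The sexes lay on opposite sides of 0 at day 10. In females 68 of 84 members were below 0 (median -0.05), and in males 12 were (median 0.10). EdgeR called 0 members in either sex, where 0.175% of all genes were lower and 0.143% higher in females and 0.00462 and 0.00923% in males. At an unadjusted p under 0.05 there were 4 members in females (17.8% of all genes) and 10 in males (18.4%). DESeq2 had 6 and 8 such members (16.9 and 17.6% of all genes) and limma-voom 5 and 8 (18.2 and 20.8%). Both called 0 members. Of all genes, DESeq2 called 477 lower and 257 higher in females and 115 lower and 451 higher in males. Limma-voom called 32 genes lower and 45 higher in females, and 1 lower and 1 higher in males. The genotype by sex term at day 10 called 0 members and 0.0% of all genes with edgeR, and 0 with DESeq2 and limma-voom. At an unadjusted p under 0.05 it had 9, 12 and 9 members, against 11.5, 10.8 and 12.7% of all genes. Without dKO male day 10 replicate 2 the median was -0.08 in females and 0.08 in males. The members summed to 4221, 4220 and 4916 CPM per kb of exon in the WT females of day 10 (replicates 1 to 3). The sum of replicate 3 was the highest of any library. The dKO females were at 4530, 4125 and 4119 CPM per kb. The female result is not given without WT female day 10 replicate 3, so it may rest on that library.

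The change with genotype differed between the days. The genotype by day term called 37 members lower at day 20 relative to day 10 and 1 higher, where 14.7 and 13.6% of all genes were called. Of the 37, 36 were also called lower at day 20; the other, Uqcrfs1, was not. The terms of largest size were -0.63 for Cycs, -0.62 for Ndufb2 and -0.56 for Atp5e, and 1.04 for Cox6a2. With the principal transcript offset 22 members were called in either direction, and the share of all genes called with that offset is not given. Without dKO male day 10 replicate 2 the term called 28 of 85 members lower and 1 higher, where 10.4 and 11.3% of all genes were called, and the median was -0.19 as with all 23 libraries.

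Markers also differed at day 10, which enters that term, and their part in it was not tested. Of all genes 1.76% were called lower and 3.23% higher at day 10. The marker calls are given with all 23 libraries only. Of 10 oligodendrocyte genes 4 were called lower in dKO (Mbp, Mag, Mobp and Cnp, -0.62 to -0.52), and the uncalled ones ran from -0.71 (Mog) to 0.40 (Pdgfra). Their sums were 5986 to 11860 CPM in WT and 4207 to 6393 CPM in dKO. Of 13 neuron genes 3 were called higher (Syt1 0.24, Map2 0.23 and Slc17a6 0.41), and the uncalled ones ran from -1.04 (Pvalb) to 0.37 (Tubb3). The neuron sums were 4594 to 5114 CPM in WT and 4638 to 6189 CPM in dKO. Cerebellar sums were 1086 to 2506 CPM in WT and 378 to 1689 CPM in dKO, and choroid plexus sums 270.3 to 600.2 and 30.9 to 633.8 CPM.

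The comparisons with age share libraries with those above. In WT, 20 members were called lower and 16 higher at day 20 than at day 10, where 24.9% of all genes were lower and 25.5% higher. In dKO, 50 were called lower and 9 higher, where 31.2 and 30.4% of all genes were; without dKO male day 10 replicate 2 these were 47 and 8 members and 27.8 and 27.5% of all genes. Sdha rose in both, by 0.60 in WT (from 207.7 to 256.8 CPM at day 10 to 318.0 to 358.0 CPM at day 20) and by 0.59 in dKO. Cox4i1 rose by 0.22 in both. Cox6b2 fell in both, by 0.65 and 0.83 on the log2 scale. Ndufb2 and Ndufab1 rose in WT (0.37 and 0.19) and fell in dKO (-0.25 and -0.20). Cycs had -0.07 in WT, where it was not called, and -0.70 in dKO. Of the 47 members lower in dKO at day 20, 14 had been called lower with age in WT, 9 higher and 24 neither. Cox6a2 fell with age in WT by 1.56 on the log2 scale, and had -0.52 in dKO (adjusted p = 0.0748).

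By sex, the day 20 change was called in more members in males. In females 5 members were called lower (Cycs, Ndufb2, Ndufab1, Uqcr11 and Atp5e) and 1 higher (Cox6a2), where 5.18% of all genes were lower and 5.17% higher; the median of the 84 was -0.08. In males 51 were lower and 2 higher (Cox6a2 and Atp5l), where 17.3% of all genes were lower and 17.3% higher; the median was -0.26. All 5 female calls were among the male calls. Cycs fell by 0.48 in females and 0.82 in males on the log2 scale, and Atp5e by 0.34 and 0.68.

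The difference between the sexes did not pass the test. With edgeR the genotype by sex term at day 20 called 0 members and 0.0% of all genes. In 78 of 84 members the change in males was below that in females, and 32 members, all in that direction, had an unadjusted p under 0.05, as did 14.9% of all genes. DESeq2 called 3 members lower (of all genes, 160 lower and 180 higher), with 27 members and 14% of all genes at an unadjusted p under 0.05. Limma-voom called 0, with 33 members and 15% of all genes at such a p. The smallest p among members was that of Ndufc1, an accessory subunit of complex I, with 0.04 in females and -0.57 in males (interaction -0.60, adjusted p = 0.0634, edgeR).

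**Figure D5:**
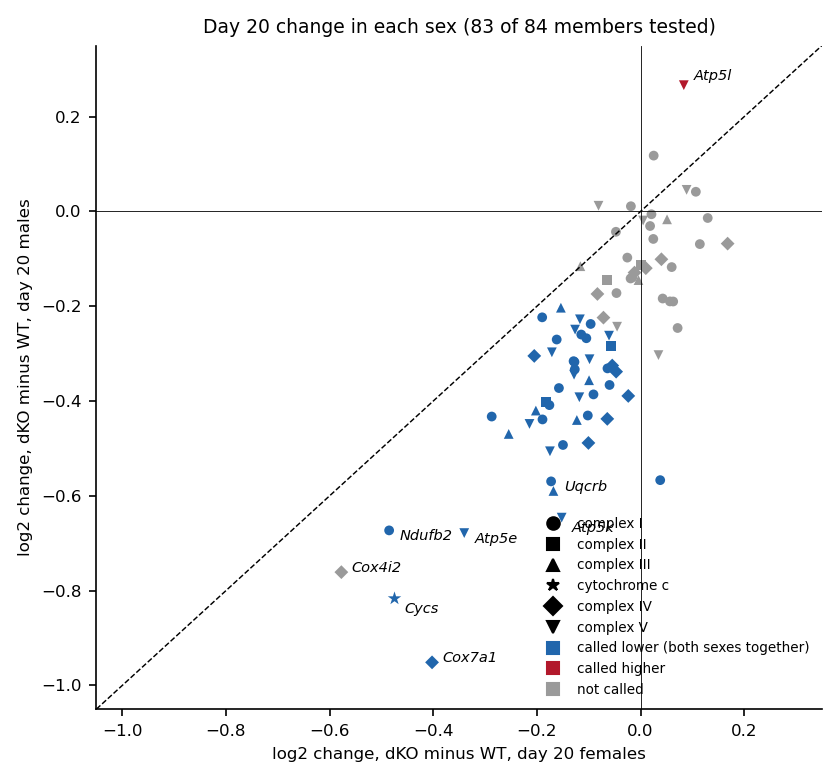
Log2 change at day 20 in females (x axis) and males (y axis) for 83 of the 84 members tested (Cox6a2 is off the scale); the dashed line marks equal change, shape gives the complex and colour the call over both sexes. Most points lie below the line.

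Assembly genes of the complexes were tested at day 20 over the same background of 19.2% lower and 18.8% higher. Of 17 complex I assembly genes tested 8 were called lower and 1 higher, the strongest by p being Ndufaf4 (-0.71), Timmdc1 (-0.53), Ndufaf2 (-0.56) and Tmem126b (-0.26). Of 21 complex IV assembly genes 11 were lower and 3 higher, with Coa3 (-0.51), which helps translate Cox1, Coa5 (-0.35), Cox20 (-0.54), a chaperone of Cox2, and Cox19 (0.35), of the copper pathway. Of 6 complex III factors 3 were lower and 1 higher, among them Bcs1l (-0.87), which inserts the Rieske protein. Sdhaf2, which adds flavin to Sdha, was the 1 of 4 complex II factors called lower (-0.34). Of 6 ATP synthase factors Tmem70 (-0.33) and Fmc1 (-0.36) were lower and Atpaf1 (0.21) higher.

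Further lists are read against the same 19.2% lower and 18.8% higher of all genes. Of the 12 subunits encoded in mitochondria that were tested, 4 were called lower: mt-Nd2 (-0.47), mt-Nd4 (-0.33), mt-Cytb (-0.27) and mt-Co1 (-0.22). All 13 summed to 10900 to 12750 CPM in WT day 20 and 9345 to 11070 CPM in dKO. Of 6 carriers and porins 3 were lower, Slc25a5 (-0.33), an ADP/ATP carrier, Slc25a3 (-0.12), the phosphate carrier, and Vdac2 (-0.12). Of 19 genes for other inputs to ubiquinone and for its synthesis 4 were lower (21.1%) and 2 higher (10.5%), with Gpd2, the mitochondrial glycerol phosphate dehydrogenase, at -0.54, Aifm1 at -0.33, Prodh, proline dehydrogenase, at 0.68 and the ubiquinone synthesis gene Coq8a at 1.08.

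Among 19 regulators of respiratory gene transcription 5 were called lower (26.3%) and 3 higher (15.8%), near the 19.2 and 18.8% of all genes. The coactivator Ppargc1b fell at day 20 (-0.54 ± 0.06) and at day 10 (-0.31, adjusted p = 0.0242, edgeR). The day 10 value is from all 23 libraries and is not given without dKO male day 10 replicate 2. At day 20 Tfb1m, a mitochondrial rRNA methyltransferase, had -0.68, Perm1 -0.91 and Ppargc1a 0.20. Nrf1 itself (-0.02, adjusted p = 0.837) and Tfam (-0.00) were not called. Gabpa, the DNA-binding subunit of GABP, was lower (-0.23, adjusted p = 0.0117).

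Markers of several cell types also differed at day 20, and their part in the members' values was not tested. The counts are read against the 19.2% lower and 18.8% higher of all genes. The lower counts of neuron and oligodendrocyte genes are near that share. All 7 erythroid genes were lower, with sums of 320.5 to 677.2 CPM in WT and 75.9 to 130.7 CPM in dKO. Of 10 microglia genes 8 were lower (172.0 to 205.7 CPM against 102.2 to 153.9), and of 10 endothelial and mural genes 5 were lower and 1 higher (406.0 to 439.8 against 286.9 to 344.7). Of 7 choroid plexus genes 3 were lower (520.8 to 673.9 against 229.9 to 527.0), of 8 astrocyte genes 3 were lower and 2 higher (4077 to 4377 against 3531 to 4071), and of 10 oligodendrocyte genes 2 were lower and 1 higher (15010 to 19500 against 11770 to 14920). Of 13 neuron genes 2 were lower (Syt1 and Tubb3), with sums of 5993 to 6143 CPM in WT and 5300 to 6034 in dKO. No cerebellar marker was called (adjusted p from 0.503 to 0.963, edgeR). Cerebellar markers summed to 1513 to 2154 CPM in WT and 1819 to 2042 in dKO.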

How the data were processed

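RNA from mouse brain tissue was sequenced after library preparation with Illumina's TruSeq Stranded mRNA kit, as the labels' protocols state. The authors deposited raw counts per gene for each of 24 libraries, and the submitters' processing notes name STAR 2.5.2b, HTSeq and the build GRCm38.p5; which tool counted, and on which annotation, is not given in the sources used here. Counts on the reverse strand were analysed; those on the forward strand came to 5.22 to 7.46% of them. Entries that name no gene were left out of library sizes; no-feature reads were 41.7 to 47.5% and unmapped reads 7.65 to 11.0% of reads. Symbols and positions came from GENCODE M21, which matched 50462 of 50686 identifiers.

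The 23 libraries of 1000000 or more gene counts were analysed in R 4.3.3 with edgeR 4.0.16: filterByExpr by group (21657 genes kept), TMM, 8 group means, glmQLFit with robust estimation and glmQLFTest, two-sided, with Benjamini-Hochberg adjustment over all genes tested and calls under 0.05. A comparison over both sexes is the mean of the female and the male difference. Values per library were given for cytochrome c, complex II, paralogue groups and the 3 members with the smallest day 20 p in each other complex; up to 4 called genes by p were named from each other list, and Nrf1, Tfam and Gabpa were chosen after their values were seen. Members and lists were chosen with earlier results of these data known. On simulated counts for day 20 (both sexes, 20992 genes), 50 genes were changed at each of 1.2, 1.5, 2 and 4-fold. Of these 32, 84, 92 and 100% were recovered, with 7 false among 161 calls. The changed genes averaged over 50 counts, and they were far fewer than the 8231 genes called in the data. Recovery and the share of false calls in the data can therefore differ from these values.

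Alternatives were RLE and upper-quartile factors, no filter, a mean of at least 1 CPM, DESeq2 1.42.0, limma-voom (limma 3.58.1), all 24 libraries, unstranded counts, exon length offset, a 1.2-fold threshold, only the libraries compared, each library left out, and, added after the data were seen, a principal transcript length offset. Promoters came from RefSeq's table; 68 members matched and 19 did not. Some genes are not reported here by name.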

Additional observations from a re-analysis of the deposited data

Results flagged for a closer look

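In 7 groups 1 library lay far from the rest of its genotype and day. The 148 groups tested were of the members named with values and of the summed levels. Chance marks about 1 in 20 groups (0.05), and 7 of 148 is near that share. Sdha reached 256.8 CPM and Cox6b1 139.5 CPM in WT female day 10 replicate 3, and Cox4i2 1.431 CPM in WT female day 10 replicate 2. In dKO male day 10 replicate 2, Cox7a2l was high at 96.87 CPM and Atp5g2 low at 23.55 CPM. Cox4i1 was low at 258 CPM in WT male day 20 replicate 1, and Atp5g2 high at 26.34 CPM in dKO female day 20 replicate 1.

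The change with genotype differed between day 20 and day 10 by the genotype by day term (edgeR, adjusted p under 0.05) in 38 members, given here as the log2 change at day 20 minus that at day 10. In complex I these were Ndufb2 (-0.62), Ndufab1 (-0.39), Ndufs8 (-0.41), Ndufa11 (-0.40), Ndufa12 (-0.30), Ndufb5 (-0.31), Ndufc1 (-0.31), Ndufb3 (-0.36), Ndufb4 (-0.32), Ndufb6 (-0.33), Ndufb7 (-0.26), Ndufa8 (-0.25), Ndufa1 (-0.31), Ndufb10 (-0.23), Ndufb11 (-0.22) and Ndufa13 (-0.23). Complex II had Sdhc (-0.24), and complex III had Uqcrb (-0.43), Uqcr11 (-0.36), Uqcrq (-0.28), Uqcr10 (-0.32), Uqcrh (-0.27) and Uqcrfs1 (-0.20). Complex IV had Cox6b1 (-0.37), Cox5a (-0.36) and Cox7b (-0.32), with Cox6a2 (1.04) in the other direction. Complex V had Atp5e (-0.56), Atp5k (-0.50), Atp5f1 (-0.28), Atp5g1 (-0.31), Atp5mpl (-0.38), Atp5c1 (-0.22), Atp5h (-0.23), Atp5o (-0.21), Atp5j2 (-0.23) and Atp5d (-0.21), and cytochrome c had Cycs (-0.63).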

How the results depend on the processing

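No paired analysis was possible because the labels give the libraries no replicate numbers; those used here follow accession order. The count of 47 members lower at day 20 was 4 when a change above 1.2-fold was required and 42 to 50 without each library in turn; the 2 members higher were 1 at a mean of at least 1 CPM, 1 above 1.2-fold and 4 with the principal transcript length offset, which moved the members' median log2 change to -0.10. All genes called at day 20 (8231) were 2905 above 1.2-fold. At day 10 the members higher were 0 with no filter, a mean of at least 1 CPM, DESeq2, unstranded counts, both length offsets, 1.2-fold and only the libraries compared, and 0 to 2 without each library; those lower were 0 to 1. All genes called at day 10 (1081) were 2084 with DESeq2, 8 above 1.2-fold, 6 with only the libraries compared, and 15 (without dKO male day 10 replicate 2) to 4516 (without dKO male day 10 replicate 1). Members called for genotype by day (38) were 22 with the principal transcript offset and 5 above 1.2-fold. In WT with age, the 20 lower were 8 with that offset, 2 above 1.2-fold and 11 (without WT female day 10 replicate 3) to 24 (without dKO male day 10 replicate 2) in the fits without 1 library, and the 16 higher were 37, 1 and 10 (without WT female day 10 replicate 1) to 23 (without WT female day 10 replicate 3). Signs changed for uncalled members: with the principal transcript offset Ndufa4 (0.0316), Cox4i1 (0.0617) and Cox6a1 (0.0586); without 1 library Ndufa4l2 (-0.0449 without WT female day 20 replicate 2, -0.0167 without WT male day 20 replicate 1, at most 0.13) and Atp5g2 (-0.0188 without dKO female day 20 replicate 1, at most 0.12). Apart from the length offsets, the 1.2-fold threshold and the fits with fewer libraries, whose construction differs, the cause was not tested. Low counts limit Cox6a2, Cox4i2 and Cox7a1.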
